A study of Rattus norvegicus with 20 samples.

Results

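The 9 genes described here mark T cells and natural killer (NK) cells: Cd2, Cd3e, Cd4, Cd8a, Cd247, Lck, Nkg7, Prf1 and Il2rb. They were chosen by name, and each was found on the array under its own symbol as 1 probe with 2 spots, so that 9 of the 13597 genes measured are members. The oesophagus of Wistar rats was profiled on one-colour Agilent arrays, with 4 arrays in each of 5 groups. The sample titles number them as replicates and name no animals. Each replicate is taken here as 1 animal, except for the nearly identical low-dose replicates described below. Animals of 4 groups had reflux oesophagitis induced by surgery. One of these groups received STW5, a liquid combination of herbal extracts, at 0.5 ml/kg (low dose), one STW5 at 2 ml/kg (high dose), one the proton pump inhibitor omeprazole at 30 mg/kg, and one no drug (untreated). The fifth group was sham operated. Dosing began 7 days ahead of the operation and went on for 10 days afterwards, when the tissue was taken. The ages of the animals and a vehicle for the untreated and sham animals are not given in the sources used here, and the tissue is whole oesophagus, in which leukocytes are one of many cell types.

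T cells recognise antigen through the T cell receptor, which signals through the CD3 chains and the zeta chain. The co-receptors CD4 and CD8 bring the kinase LCK to the receptor, where it phosphorylates these chains. NK cells have no such receptor, but share with T cells the zeta chain, CD2, perforin, NKG7 and the interleukin 2 receptor beta chain, and in the rat CD8 alpha is also carried by NK cells. The 9 genes therefore do not separate cytotoxic T cells from NK cells. T cells are known to enter the wall of the oesophagus in reflux disease.

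The probe sequences show what was hybridised for 5 members that stand for the receptor complex (Cd3e), adhesion to partner cells (Cd2), the receptor's kinase (Lck) and cytotoxic granules (Prf1, Nkg7). They are given in the sense direction, with the coordinates of the rat build rn4 from the scanner files. The Cd3e probe lies at chr8:47950313-47950372 (minus strand), the Cd2 probe at chr2:196345785-196345844 (minus strand), the Prf1 probe at chr20:28663319-28663378 (plus strand) and the Nkg7 probe at chr1:93813978-93814037 (plus strand). The Lck probe is 60 bases long but spans 2108 bases of the genome, chr5:148713169-148715276 (minus strand), and so crosses an intron. All 5 lie within the transcripts of their genes.
Cd3e: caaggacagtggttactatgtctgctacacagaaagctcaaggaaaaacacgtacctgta
Cd2: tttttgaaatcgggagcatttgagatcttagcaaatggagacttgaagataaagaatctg
Lck: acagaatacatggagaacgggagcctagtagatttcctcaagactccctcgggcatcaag
Prf1: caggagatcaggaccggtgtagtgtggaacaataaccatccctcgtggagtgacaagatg
Nkg7: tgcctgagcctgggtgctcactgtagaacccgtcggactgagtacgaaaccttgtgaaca

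Per array, 61.5% to 70.5% of features were well above background and 0 were saturated. Of the markers of oesophageal squamous epithelium 7 of 8 were measured and of muscle 9 of 9 and all of these were above background on 20 of 20 arrays. The arrays of low-dose replicates 1 and 2 were nearly the same. The spread between them was 1.10 times that between spots of a probe within an array (at least 2.59 times for other pairs within groups). They were counted as 1 sample (n = 3 for that group, 19 samples in all). Between groups the lowest spread was 2.14 times, for sham replicate 2 and omeprazole replicate 2. Sham replicate 2 was also closer to omeprazole replicate 3 (3.14) and untreated replicate 2 (3.90) than to any sham array (at least 4.69). In the deposited value table the columns of the 8 STW5 samples match scanner files of the other dose, and the numbers of the 2 STW5 groups differ between the sample titles and the series text, so which dose an STW5 group received is not settled. Each scanner file kept its own label here. With the doses exchanged, the low-dose and high-dose values and calls below change places, and the sign of every difference between the doses turns. Slide 1 held the sham arrays, slide 2 the untreated and low-dose arrays and slide 3 the high-dose and omeprazole arrays. Only untreated and low-dose animals, and high-dose and omeprazole animals, can thus be compared within a slide. In every other comparison, those between the STW5 doses and of each drug with sham included, slide and group cannot be told apart.

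A level below is the log2 signal of a probe minus the 75th percentile of its array. More negative levels are dimmer. A change is the difference of 2 group means of such levels, from a limma fit of all 13597 genes, given with its standard error. It is called at a Benjamini-Hochberg adjusted p under 0.05 over all these genes. In whole tissue, fewer cells of a type and less RNA per cell cannot be told apart. Cd247 and Nkg7 were well above background on 19 of 20 arrays, Il2rb on 15, Prf1 on 14, Cd4 and Cd8a on 12, Cd3e on 10, Cd2 on 6 and Lck on 4. Levels not well above background carry little information on order. The normexp background correction used below as an alternative included an offset of 50 units added to each signal. Such an offset by itself shrinks the log2 changes of dim probes, so smaller changes with normexp are not due to the background correction alone.

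Most of these genes were higher after surgery without a drug than after sham surgery. In untreated against sham animals 7 of 9 members were called higher, where 15% of all genes were, and 0 were called lower, where 17.9% of all genes were. The members' median change was 2.25, beside -0.08 over all genes. In low-dose STW5 against untreated animals 6 of 9 were called lower, where 15.9% of all genes were, with a median of -2.13 beside 0.17. In high-dose STW5 against untreated animals 0 of 9 were called, where 9.49% of all genes were called in either direction (3 members had an unadjusted limma p under 0.05), and the median was -1.002 beside -0.01. In omeprazole against untreated animals 2 of 9 were called lower, where 12.2% of all genes were, with a median of -1.09 beside 0.10. All 4 comparisons share the untreated arrays, so they are not independent of each other.

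**Figure D1:**
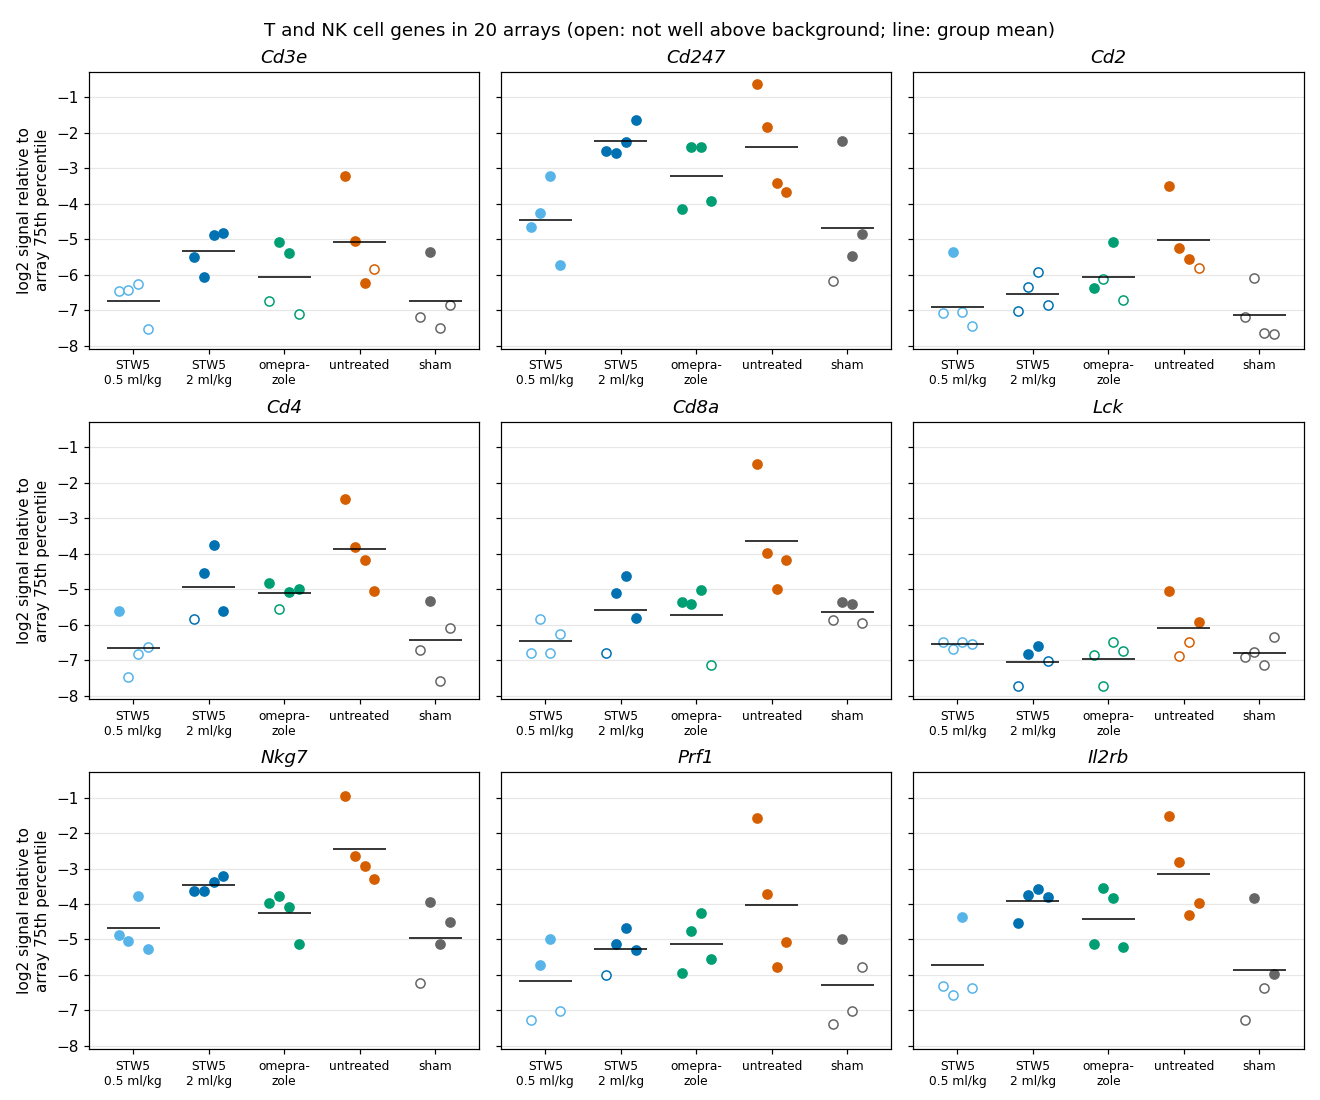
Level of each of the 9 genes on every array (log2 signal relative to the array's 75th percentile, vertical axis) in the 5 groups. Filled points are well above background and open points are not; the line is the group mean, with low-dose replicates 1 and 2 counted as 1 sample. The untreated mean is the highest of the 5 in 8 genes, with high-dose STW5 above it in Cd247.

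The receptor complex was read through Cd3e and Cd247. Cd3e (chromosome 8, 54200617 to 54211770 in GRCr8) encodes the epsilon chain of CD3. Its levels were -6.47, -6.43, -6.27 and -7.54 on low-dose arrays (replicates 1 to 4, as in all lists below), -5.51, -6.07, -4.88 and -4.82 on high-dose arrays and -6.73, -5.07, -5.39 and -7.10 on omeprazole arrays. Untreated arrays had -3.23, -5.06, -6.23 and -5.83, against -7.20, -5.37, -7.50 and -6.85 on sham arrays. Untreated replicate 1 stood far above the rest of its group, sham replicate 2 lay among the untreated arrays, and the groups overlapped. The change in untreated against sham animals was 1.65 ± 0.63 (adjusted p = 0.0534), which did not pass. No low-dose array was well above background, so that Cd3e was at least 1.15-fold lower there than in untreated animals (means -6.75 ± 0.69 and -5.08 ± 1.33, SD, n = 3 and 4, adjusted p = 0.0618), again without passing. High-dose STW5 differed from untreated by -0.24 ± 0.63 (adjusted p = 0.833) and omeprazole by -0.99 ± 0.63 (adjusted p = 0.254).

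Cd247 (chromosome 13, 80576264 to 80651422) encodes the zeta chain, which T cells and NK cells both use. Low-dose arrays had levels of -4.64, -4.27, -3.22 and -5.73, high-dose arrays -2.52, -2.56, -2.25 and -1.65 and omeprazole arrays -4.16, -2.39, -2.39 and -3.93. In untreated arrays Cd247 stood at -0.64, -1.85, -3.42 and -3.66, against -6.17, -2.23, -5.48 and -4.85 in sham arrays. The 4 high-dose arrays lay close together at the upper end, and sham replicate 2, at -2.23, lay above 2 of the 4 untreated arrays. Cd247 rose in untreated against sham animals by 2.29 ± 0.80 (adjusted p = 0.0371), a call lost when untreated replicate 1 or 2 or sham replicate 1, 3 or 4 was left out (change 1.71 to 2.24), with normexp background correction (0.98) or in a fit of these 2 groups alone (adjusted p = 0.115). Low-dose STW5 differed from untreated by -2.08 ± 0.87 (adjusted p = 0.0686), which did not pass. High-dose STW5 differed by 0.15 ± 0.80 (adjusted p = 0.925), with a 95% interval of -1.55 to 1.84, and omeprazole by -0.83 ± 0.80 (adjusted p = 0.468). Its high-dose change was below 0 without untreated replicate 3 (-0.20), untreated replicate 4 (-0.28) or high-dose replicate 4 (-0.05), so its sign is not fixed.

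Lck (chromosome 5, 147172642 to 147201267) encodes the kinase that starts receptor signalling and was well above background on the fewest arrays of the 9. Its levels were -6.47, -6.69, -6.49 and -6.53 on low-dose arrays, -7.73, -6.82, -6.60 and -7.02 on high-dose arrays and -6.85, -7.73, -6.48 and -6.75 on omeprazole arrays. Untreated arrays gave -5.04, -6.87, -6.49 and -5.91, against -6.91, -6.77, -7.14 and -6.34 on sham arrays. Only untreated replicates 1 and 4 and high-dose replicates 2 and 3 were well above background. No fold is therefore given against sham, low-dose or omeprazole arrays, where all arrays were at background (adjusted p = 0.129 for untreated against sham, 0.353 and 0.0721 for low-dose STW5 and omeprazole against untreated). The change in high-dose STW5 against untreated animals was -0.97 ± 0.35 (adjusted p = 0.0869).

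Cd2 (chromosome 2, 191399510 to 191412659) encodes an adhesion molecule of T cells and NK cells that binds partner cells. Levels were -7.09, -5.37, -7.04 and -7.45 on low-dose arrays, -7.03, -6.34, -5.94 and -6.86 on high-dose arrays and -6.37, -6.11, -5.07 and -6.71 on omeprazole arrays. On untreated arrays they were -3.51, -5.24, -5.56 and -5.80, against -7.21, -6.09, -7.63 and -7.67 on sham arrays. Every untreated array lay above every sham array, but neither untreated replicate 4 nor any sham array was well above background, so this order carries little information. Cd2 was thus at least 1.39-fold higher in untreated than in sham animals (means -5.03 ± 1.04 and -7.15 ± 0.74, SD, n = 4 each, adjusted p = 0.00411). With dim signals raised to the lowest level well above background, a setting chosen after seeing the data, the change was 0.55, and with normexp it was 0.31, and neither was called. Cd2 fell under low-dose STW5, with a change of -1.88 ± 0.53 (adjusted p = 0.0113). Low-dose replicate 2, at -5.37, lay above 2 untreated arrays, and the change was not called with dim signals raised (-0.32), with normexp (-0.06), with array weights (-1.42) or in the 2-group fit (adjusted p = 0.0538). High-dose arrays, none of them well above background, lay below the untreated arrays, a difference of at least 1.83-fold that did not pass (means -6.54 ± 0.50 and -5.03 ± 1.04, adjusted p = 0.06). For omeprazole the change was -1.04 ± 0.49 (adjusted p = 0.127).

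The co-receptors were Cd4 and Cd8a. Cd4 (chromosome 4, 159355147 to 159381636) encodes the co-receptor of helper T cells, which in the rat is also carried by monocytes and macrophages. On low-dose arrays Cd4 stood at -5.60, -7.47, -6.82 and -6.61, on high-dose arrays at -5.85, -4.53, -3.76 and -5.62 and on omeprazole arrays at -4.82, -5.57, -5.07 and -4.998. The untreated arrays had -2.46, -3.80, -4.16 and -5.06, against -6.70, -5.33, -7.59 and -6.08 in the sham arrays. All untreated arrays lay above all sham and all low-dose arrays and overlapped with the high-dose and omeprazole arrays. Only 1 of 4 sham and 1 of 4 low-dose arrays was well above background. The sizes of the Cd4 changes that involve these groups therefore rest in part on background levels. Cd4 rose in untreated against sham animals by 2.55 ± 0.54 (adjusted p = 0.00228) and fell in low-dose against untreated animals, with a change of -2.79 ± 0.58 (adjusted p = 0.00162). Of the 9 genes it had the smallest p in the low-dose comparison, but that call was lost with normexp (-0.48, adjusted p = 0.0506) and in the deposited value table (-1.10, adjusted p = 0.165), whose STW5 columns match the other dose. High-dose STW5 gave -1.07 ± 0.54 (adjusted p = 0.204) and omeprazole -1.24 ± 0.54 (adjusted p = 0.0949), neither of which passed.

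Cd8a (chromosome 4, 104924116 to 104928353) encodes the alpha chain of the co-receptor of cytotoxic T cells. Its low-dose levels were -6.79, -5.84, -6.80 and -6.25, its high-dose levels -6.79, -5.11, -4.63 and -5.82 and its omeprazole levels -5.35, -5.42, -5.03 and -7.14. In untreated animals they were -1.45, -3.97, -4.98 and -4.19, against -5.87, -5.35, -5.43 and -5.94 in sham animals. Untreated replicate 1, at -1.45, was the brightest array by far, and the other 3 untreated arrays also lay above every sham, low-dose and omeprazole array. Cd8a rose in untreated against sham animals by 2.00 ± 0.62 (adjusted p = 0.0216), and without untreated replicate 1 the change was 1.26 and without sham replicate 1 it was 1.92, neither of them called, nor was it with normexp (0.73) or in the 2-group fit (adjusted p = 0.067). With no low-dose array above background, Cd8a was at least 3.10-fold lower in low-dose than in untreated animals (means -6.46 ± 0.30 and -3.65 ± 1.53, SD, n = 3 and 4, adjusted p = 0.00401). With normexp that change was -0.68 and was not called (adjusted p = 0.0877). Cd8a also fell under omeprazole, with a change of -2.09 ± 0.62 (adjusted p = 0.0203), a call lost without untreated replicate 1 (-1.35) or omeprazole replicate 4 (-1.62) and in the 2-group fit (adjusted p = 0.0827). High-dose STW5 gave -1.94 ± 0.62 (adjusted p = 0.0579), just short of passing.

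The cytotoxic genes were Nkg7 and Prf1. Nkg7 (chromosome 1, 102981497 to 102982564) encodes a membrane protein of cytotoxic granules that takes part in their release. Its levels on low-dose arrays were -4.87, -5.05, -3.78 and -5.28, on high-dose arrays -3.63, -3.64, -3.37 and -3.22 and on omeprazole arrays -3.96, -3.76, -4.09 and -5.14. They were -0.96, -2.65, -2.94 and -3.30 on untreated arrays, against -6.22, -3.94, -5.13 and -4.51 on sham arrays. All untreated arrays stood above all sham, low-dose and omeprazole arrays, and only high-dose replicate 4, at -3.22, lay above an untreated array. Nkg7 rose in untreated against sham animals by 2.49 ± 0.51 (adjusted p = 0.00202) and had the smallest p of the set there. It fell under low-dose STW5, with a change of -2.21 ± 0.56 (adjusted p = 0.00541; -1.03 and not called in the value table), and under omeprazole, with a change of -1.78 ± 0.51 (adjusted p = 0.017), the last not called without untreated replicate 1 (-1.28) or omeprazole replicate 4 (-1.48). Under high-dose STW5 the change was -1.002 ± 0.51 (adjusted p = 0.213).

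Prf1 (chromosome 20, 29789040 to 29794550) encodes perforin, the pore-forming protein of these granules. Prf1 had levels of -7.28, -5.71, -4.99 and -7.02 on low-dose arrays, -6.01, -5.13, -4.67 and -5.29 on high-dose arrays and -5.93, -4.76, -4.24 and -5.54 on omeprazole arrays. The levels were -1.57, -3.71, -5.77 and -5.08 on untreated arrays, against -7.37, -4.97, -7.01 and -5.78 on sham arrays. The untreated arrays spread over the widest range of the set and overlapped with every other group. Prf1 rose in untreated against sham animals by 2.25 ± 0.75 (adjusted p = 0.0303) and fell under low-dose STW5, with a change of -2.13 ± 0.82 (adjusted p = 0.0487). Without untreated replicate 1 these changes were 1.43 and -1.31, and neither passed; the first call was also lost without untreated replicate 2 (2.14) or sham replicate 1 or 3 (1.89 and 2.01), and the second without untreated replicate 2 (-2.03), low-dose replicates 1 and 2 (-1.97) or low-dose replicate 4 (-1.71). Both calls were lost with normexp (0.70 and -0.51), with dim signals raised (1.28 and -1.18) and in the 2-group fit (adjusted p = 0.111 and 0.153), and the second also in the value table (-1.27). High-dose STW5 gave -1.24 ± 0.75 (adjusted p = 0.296) and omeprazole -1.09 ± 0.75 (adjusted p = 0.299).

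Il2rb (chromosome 7, 111913828 to 111928537) encodes the receptor chain through which T cells and NK cells respond to interleukins 2 and 15. Il2rb levels were -6.30, -6.58, -4.36 and -6.37 on low-dose arrays, -4.54, -3.75, -3.56 and -3.81 on high-dose arrays and -5.11, -3.55, -3.82 and -5.21 on omeprazole arrays. Those of untreated arrays were -1.51, -2.82, -4.30 and -3.96, against -7.27, -3.84, -6.37 and -5.97 of sham arrays. Sham replicate 2 lay above 2 untreated arrays, while low-dose replicate 3, at -4.36, lay just below the lowest untreated array. Il2rb rose in untreated against sham animals by 2.72 ± 0.71 (adjusted p = 0.00843), the largest fitted change of the 9. It fell under low-dose STW5, with a change of -2.58 ± 0.77 (adjusted p = 0.015), which did not pass without untreated replicate 1 (-2.03), low-dose replicates 1 and 2 (-2.22) or low-dose replicate 4 (-2.25), nor in the value table (-0.80). In the 2-group fits neither change of Il2rb passed (adjusted p = 0.0505 and 0.052). High-dose STW5 gave -0.77 ± 0.71 (adjusted p = 0.505) and omeprazole -1.27 ± 0.71 (adjusted p = 0.194).

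**Figure D2:**
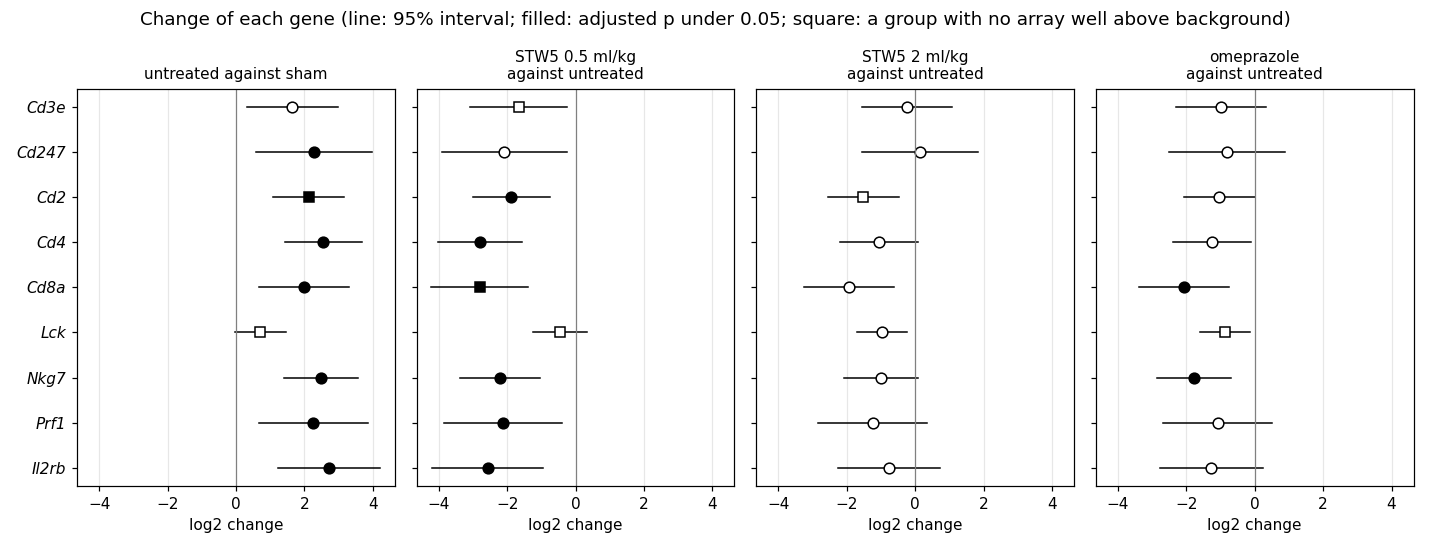
Log2 change of each of the 9 genes in the 4 comparisons (horizontal axis), with its 95% interval as a line. Filled symbols passed an adjusted p of 0.05, and squares mark a comparison in which one group had no array well above background, where the text gives a bound. Filled symbols number 7, 6, 0 and 2 from left to right.

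Counted by separation, all untreated arrays lay above all sham samples in 4 of 9 members (Cd2, Cd4, Cd8a and Nkg7), where 11.7% of all genes were separated that way. All low-dose samples lay below all untreated samples in 6 of 9 (all but Cd247, Lck and Prf1), where 15.3% of all genes did. For high-dose STW5 this was 1 of 9 (Cd2), where 7.96% did, and for omeprazole 2 of 9 (Cd8a and Nkg7), where 12.6% did. Cd2 and Cd3e count there through untreated arrays that were not well above background, whose order carries little information. For low-dose STW5, Cd2 also counts only because replicates 1 and 2 were averaged. Low-dose replicate 2 by itself (-5.37) lay above untreated replicates 3 (-5.56) and 4 (-5.80). Leaving out 1 library moved the count of members called higher in untreated against sham animals to 4 without untreated replicate 1 or without sham replicate 1, 5 without sham replicate 3 and 8 without sham replicate 2. For low-dose STW5 against untreated it was 4 without untreated replicate 1, low-dose replicates 1 and 2, or low-dose replicate 4. For omeprazole it was 0 without untreated replicate 1 or without omeprazole replicate 4. Over all genes, leaving out 1 library called 3360 to 4670, 3596 to 5020 and 2696 to 4120 in these 3 comparisons, in either direction. With normexp background correction 3 members were called in untreated against sham animals and 2 in low-dose STW5 against untreated, and with dim signals raised 5 and 4. Fitted on the arrays of slide 2 alone, low-dose STW5 against untreated called 3. With the STW5 doses exchanged, 6 members were called lower at the high dose and 0 at the low dose.

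In the order of the 5 group means, untreated came first in 8 of 9 members, the exception being Cd247, and sham came last in 5, low-dose STW5 in 3 and high-dose STW5 in 1 (Lck). Of the 36 neighbouring pairs of groups in these orders 0 passed in limma, and 2 had an unadjusted p under 0.05 (Cd4 between omeprazole and sham, and Cd8a between untreated and high-dose STW5). The mean of the 9 genes, each centred over the 19 samples, was -0.85, -0.33 and -1.33 in the low-dose samples, -0.31, 0.32, 0.79 and 0.30 in the high-dose samples and -0.28, 0.27, 0.58 and -0.64 in the omeprazole samples. It was 2.94, 1.20, 0.33 and 0.45 in the untreated samples, against -1.57, 0.32, -1.39 and -0.80 in the sham samples. So untreated replicate 1 stood far above the rest, and sham replicate 2 was level with the 2 lower untreated samples.

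Within a group, the same replicate was often high in most of the set. Untreated replicate 1 had the highest level of its group in 9 of 9 members, and sham replicate 2 in 8 of 9, the exception being Lck. Low-dose replicate 3 was highest in 6 members, high-dose replicate 3 in 6 and omeprazole replicate 3 in 5. Sham replicate 2 was also the highest sham sample in the marker lists of other T cell genes, macrophages, neutrophils and dendritic cells, while sham replicate 4 was the highest in those of NK cells, B cells, mast cells and eosinophils, and all leukocytes. The replicates named above as highest in most members were also the arrays with the highest median signal of their group before scaling. These medians were 77.6 units for low-dose replicate 3, 139.4 for high-dose replicate 3 and 142.5 for omeprazole replicate 3. For untreated replicate 1 the median was 113.7 and for sham replicate 2 it was 105.4. Differences between animals and between arrays cannot be told apart here, and their part in the group differences was not tested.

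Of the comparisons between drug and sham animals and among the drugs, low-dose STW5 against sham called 0 of 9 members (0.00735% of all genes called, 0 members with an unadjusted limma p under 0.05, adjusted p 0.738 to 0.995). Omeprazole against sham called 0 of 9 (1.57% of all genes, 2 unadjusted, adjusted p 0.377 to 0.967). High-dose STW5 against sham called 0 of 9 (8.55% of all genes, 5 unadjusted, adjusted p 0.0673 to 0.965). Without sham replicate 2 it called 4, and over all genes leaving out 1 library called 406 to 1467. A p that misses the threshold does not show that the groups were alike. High-dose means lay above sham means in 8 of 9 members and omeprazole means in 7, against 6 for low-dose STW5. The members' median changes were 1.41, 1.08 and 0.14 in this order, beside -0.09, 0.01 and 0.07 over all genes. Cd2 at the high dose and Lck at the low dose count there with no array of either group well above background. These comparisons share the sham arrays.

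Between the 2 doses of STW5, 1 of 9 members was called higher at the high dose, where 10.7% of all genes were. This was Cd4, at 1.72 ± 0.58 (adjusted p = 0.0417). That call was lost when high-dose replicate 2 or 3 or any low-dose sample was left out (change 1.32 to 1.78), and the difference was 0.40 with dim signals raised. It changed sign with normexp (-0.058, adjusted p = 0.825), in the value table (-1.59) and with exchanged doses (-1.72). Of all 9, 5 had an unadjusted p under 0.05, and adjusted p values reached 0.642. Between these 2 groups the replicate numbers went together. With the replicate number as a block over all 20 arrays 3 members were called, namely Cd4 (1.69, adjusted p = 0.0389), Cd247 (2.22, adjusted p = 0.0339) and Il2rb (1.99, adjusted p = 0.038). That fit also called more of all genes than the main fit (count in the closing section). The 3 calls are therefore not read as particular to the members. The same count of 3 was called over all 20 arrays with no replicate block, where low-dose replicates 1 and 2 also count as 2 samples. High-dose STW5 against omeprazole called 0 of 9 (0.221% of all genes, 0 unadjusted, adjusted p 0.433 to 0.934), and low-dose STW5 against omeprazole 0 of 9 (2.41% of all genes, 1 unadjusted, adjusted p 0.154 to 0.697).

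Many of the measured genes that work with the members moved with the surgery too. Among other receptor complex and co-receptor genes, 8 of the 16 listed were measured, and 7 of these 8 were higher in untreated than in sham animals. Their median change was 2.00 there (all genes -0.08), and relative to untreated animals -1.60 at the low dose (all genes 0.17), -0.16 at the high dose (all genes -0.01) and -1.11 under omeprazole (all genes 0.10). Genes below the detection filter are left out of this and the following counts and medians, which are descriptions. The filter asks for 4 arrays well above background, which the 4 untreated arrays alone can supply. This can tilt the counts and medians towards genes high in untreated animals. Il10, named below, was well above background on 4 untreated, 0 sham, 1 low-dose, 2 high-dose and 1 omeprazole arrays. Cd3g, Lcp2, Fyb1, Fcgr3a, Il23a, Tnfrsf4, Tnfrsf9 and Ccr2, named here and below, had only 2 of 4 sham arrays well above background. For Klri1 and Klrc3 it was 1 of 4. The sizes of these genes' changes against sham animals rest in part on background levels. Cd6, a receptor that tunes T cell activation, rose by 2.98 ± 0.44 (adjusted p = 0.000295), and Cd3g, the gamma chain of CD3, by 2.83 ± 0.79 (adjusted p = 0.0122). Cd8b, the partner chain of CD8 alpha, was at least 2.46-fold higher (adjusted p = 0.000821). Of the 8, 3 were lower in low-dose than in untreated animals, 2 in omeprazole and 0 in high-dose animals. Cd6 changed by -2.23 ± 0.48 (adjusted p = 0.00191) at the low dose and by -2.30 ± 0.44 (adjusted p = 0.00156) under omeprazole.

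Of the genes of T cell receptor signalling 13 of 20 were measured, and 8 were higher in untreated than in sham animals. The list's median was 2.04 there, and -2.22, -0.77 and -1.30 in low-dose STW5, high-dose STW5 and omeprazole against untreated animals. Lcp2, the adaptor SLP-76, rose by 3.12 ± 0.49 (adjusted p = 0.000399), Fyb1, an adaptor that binds it, by 3.65 ± 0.52 (adjusted p = 0.000253), and Ptprc, the phosphatase CD45, by 3.25 ± 0.52 (adjusted p = 0.000409). Under low-dose STW5 9 of the 13 were lower than in untreated animals, under high-dose STW5 0 and under omeprazole 6. Ptprc changed by -3.71 ± 0.56 (adjusted p = 0.000275) at the low dose, -1.31 ± 0.52 (adjusted p = 0.11) at the high dose and -2.78 ± 0.52 (adjusted p = 0.00127) under omeprazole. Lcp2, Fyb1 and Ptprc are also used by myeloid cells.

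Cytotoxic granule and effector genes were measured for 11 of 17, with 5 higher in untreated than in sham animals. The median was 1.31 in this comparison and -1.06, -0.78 and -1.06 for the 2 STW5 doses, low to high, and omeprazole. Srgn, the granule proteoglycan, rose by 3.54 ± 0.66 (adjusted p = 0.00101), Ctsc, the protease that activates granzymes, by 1.35 ± 0.36 (adjusted p = 0.00897), and Xcl1, a chemokine of T and NK cells, by 1.51 ± 0.36 (adjusted p = 0.00457). Relative to untreated animals 4 were lower under low-dose STW5, 0 under high-dose STW5 and 4 under omeprazole. The granzyme genes Gzma and Gzmm did not pass in untreated against sham animals, with 0.09 ± 0.42 (adjusted p = 0.896) and 1.31 ± 0.54 (adjusted p = 0.0727). Gzmb was below the detection filter.

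Only 6 of 20 NK receptor genes were measured. Their median change was 2.25 in untreated against sham animals, and against untreated animals -2.60 for low-dose STW5, -0.40 for high-dose STW5 and -1.49 for omeprazole. Of these, 5 were higher in untreated than in sham animals, among them Hcst, the DAP10 adaptor, by 3.46 ± 0.51 (adjusted p = 0.000295), and Klri1 and Klrc3, lectin-like receptors, by 1.95 ± 0.41 (adjusted p = 0.00225) and 2.14 ± 0.54 (adjusted p = 0.00716). Fcgr3a, the Fc receptor CD16, rose by 2.72 ± 0.70 (adjusted p = 0.00759) and is also found on myeloid cells. Relative to untreated animals 4 of the 6 were lower and 1 higher under low-dose STW5, 1 lower and 1 higher under high-dose STW5, and 3 lower and 1 higher under omeprazole. The gene lower at the high dose was Hcst, with a change of -1.89 ± 0.51 (adjusted p = 0.0299). Klrc3 was at least 1.95-fold lower under low-dose STW5 than in untreated animals (adjusted p = 0.000882). At the high dose its change was 0.19 ± 0.54 (adjusted p = 0.848). The gene that moved the other way was Klrk1, the activating receptor NKG2D. It stood at -0.04 ± 0.15 (adjusted p = 0.874) in untreated against sham animals and was higher than in untreated animals under low-dose STW5 (0.47 ± 0.17 (adjusted p = 0.0349)), high-dose STW5 (0.52 ± 0.15 (adjusted p = 0.0445)) and omeprazole (0.65 ± 0.15 (adjusted p = 0.00597)).

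Interleukin 2 and common gamma chain genes were measured for 12 of 16. In untreated against sham animals 8 were higher and 1 lower. The median was 0.83, and -0.92 for low-dose STW5, -0.63 for high-dose STW5 and -0.78 for omeprazole against untreated animals. Il7r, the interleukin 7 receptor, rose by 3.71 ± 0.59 (adjusted p = 0.000405), Il2rg, the common gamma chain itself, by 1.99 ± 0.31 (adjusted p = 0.000398), and its kinase Jak3 by 3.12 ± 0.50 (adjusted p = 0.000448). Il21r was at least 4.51-fold higher (adjusted p = 0.000332). Relative to untreated animals 7 were lower and 1 higher under low-dose STW5, 2 lower under high-dose STW5, and 6 lower and 1 higher under omeprazole. Il2rg changed by -2.16 ± 0.34 (adjusted p = 0.000328) at the low dose, -0.69 ± 0.31 (adjusted p = 0.162) at the high dose and -1.45 ± 0.31 (adjusted p = 0.00339) under omeprazole.

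Helper lineage factors and cytokines moved less as a list. Of 26 genes 13 were measured, with 3 higher and 1 lower in untreated than in sham animals. Medians were 0.02 there, and -0.03 at the low dose, -0.25 at the high dose and -0.32 under omeprazole. Il10, an inhibitory cytokine, was at least 5.16-fold higher (adjusted p = 0.00074), Runx3, a factor of cytotoxic T cells, at least 1.47-fold higher (adjusted p = 0.0179), and Il23a rose by 1.00 ± 0.29 (adjusted p = 0.0159). Bcl11b, a factor of the T cell lineage that other tissues also express, fell, with a change of -0.89 ± 0.31 (adjusted p = 0.0339), and was higher under low-dose STW5 (1.495 ± 0.33 (adjusted p = 0.00237)) and omeprazole (1.19 ± 0.31 (adjusted p = 0.00942)) than in untreated animals. Il10 was lower under high-dose STW5 as well, with a change of -2.85 ± 0.63 (adjusted p = 0.0119). Probes of Ifng and Il2 were below the detection filter.

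Checkpoint and co-stimulation genes were measured for 8 of 16, of which 5 were higher in untreated than in sham animals. They had a median of 1.84, with -2.11, -0.75 and -1.36 for low-dose STW5, high-dose STW5 and omeprazole against untreated animals. Cd274, the ligand PD-L1, was at least 2.47-fold higher (adjusted p = 0.00397). Tnfrsf4, the receptor OX40, rose by 2.63 ± 0.61 (adjusted p = 0.00402) and Tnfrsf9, the receptor 4-1BB, by 1.62 ± 0.40 (adjusted p = 0.0062). Relative to untreated animals 5 were lower under low-dose STW5, 4 under omeprazole and 1 under high-dose STW5, which was Cd274 at -1.69 ± 0.49 (adjusted p = 0.0406). Of 23 measured chemoattractant and homing genes (27 in the list) 13 were higher in untreated than in sham animals and 0 lower. Here the median was 1.45, and -1.70 for low-dose STW5, -0.59 for high-dose STW5 and -1.20 for omeprazole. Icam1, the adhesion ligand of leukocytes, rose by 2.44 ± 0.32 (adjusted p = 0.00018), and the chemokine receptor Ccr2 by 3.29 ± 0.54 (adjusted p = 0.000495). Of these 23, 15 were lower than in untreated animals under low-dose STW5, 3 under high-dose STW5 and 11 under omeprazole. Icam1 was lower in all 3, with -2.63 ± 0.35 (adjusted p = 0.000179), -1.34 ± 0.32 (adjusted p = 0.0168) and -2.01 ± 0.32 (adjusted p = 0.000424) for low-dose STW5, high-dose STW5 and omeprazole.

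**Figure D3:**
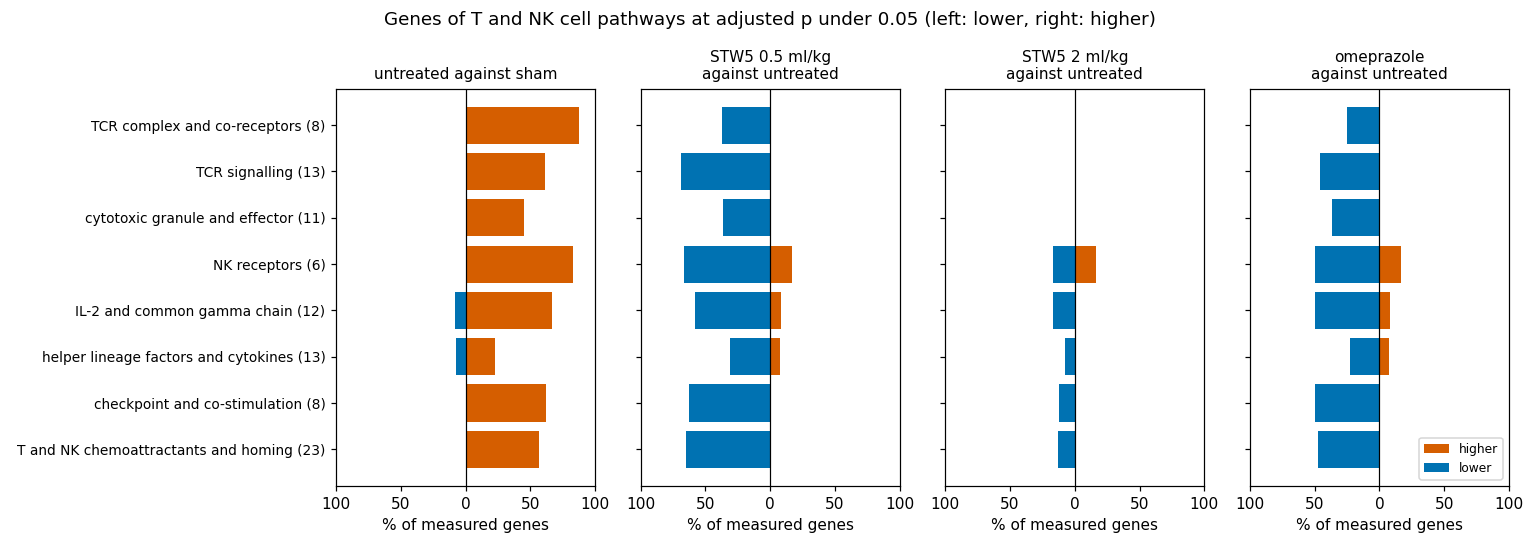
Share of the measured genes of each list (number in brackets) that passed an adjusted p of 0.05, in percent, drawn to the right where higher and to the left where lower in the first-named group. Bars to the right lead in untreated against sham animals, and bars to the left in low-dose STW5 and omeprazole against untreated animals.

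Markers of other cell types moved with the members. Of 15 macrophage and monocyte markers 15 were higher in untreated than in sham animals, 15 were lower under low-dose STW5, 4 under high-dose STW5 and 15 under omeprazole. Their mean centred level ranged over -2.38 to -0.55 in low-dose, 0.15 to 1.05 in high-dose, -0.89 to -0.26 in omeprazole and 1.27 to 2.39 in untreated samples, against -2.12 to -0.17 in sham samples. Of 8 measured neutrophil markers 7 were higher in untreated than in sham animals (median change 4.85), and 5, 2 and 4 were lower under low-dose STW5, high-dose STW5 and omeprazole. Their mean centred level was -2.81 to -0.33 in low-dose, -0.53 to 1.42 in high-dose, -1.94 to 1.03 in omeprazole and 0.91 to 4.21 in untreated samples, against -2.89 to 0.71 in sham samples. Of 9 pan-leukocyte markers 8 were higher in untreated than in sham animals and 8, 2 and 8 were lower under low-dose STW5, high-dose STW5 and omeprazole. The 5 T cell markers that are no members ranged over -1.38 to -0.14 in low-dose, 0.36 to 1.24 in high-dose, -0.90 to 0.43 in omeprazole and 0.30 to 2.44 in untreated samples, against -2.11 to 0.35 in sham samples. Zap70, the kinase that binds the zeta chain, rose in untreated against sham animals by 2.04 ± 0.50 (adjusted p = 0.00562).

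The 3 NK cell markers that are no members (Klrk1, Gzma and Gzmm) ranged over -0.75 to 1.43 in untreated samples, against -0.60 to 0.17 in sham samples, and 0 of 3 passed. Of 9 B and plasma cell markers only Pax5 and Pou2af1 were measured, and probes of Ms4a1, Cd79a and Cd79b were below the detection filter. Pou2af1, a coactivator of B cells, was higher in untreated than in sham animals by 2.88 ± 0.63 (adjusted p = 0.00285) and lower than in untreated animals under low-dose STW5 (-2.39, adjusted p = 0.0118), high-dose STW5 (-2.54, adjusted p = 0.0202) and omeprazole (-3.16, adjusted p = 0.00199). Pax5, a B cell factor, stood at -0.18 ± 0.14 (adjusted p = 0.346) in untreated against sham animals and was higher under low-dose STW5 (0.48, adjusted p = 0.0217). Epithelial markers went the other way, with 4 of 7 lower in untreated than in sham animals, as did muscle markers, with 5 of 9 lower. The part of these other cell types in the members' changes was not tested.

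**Figure D4:**
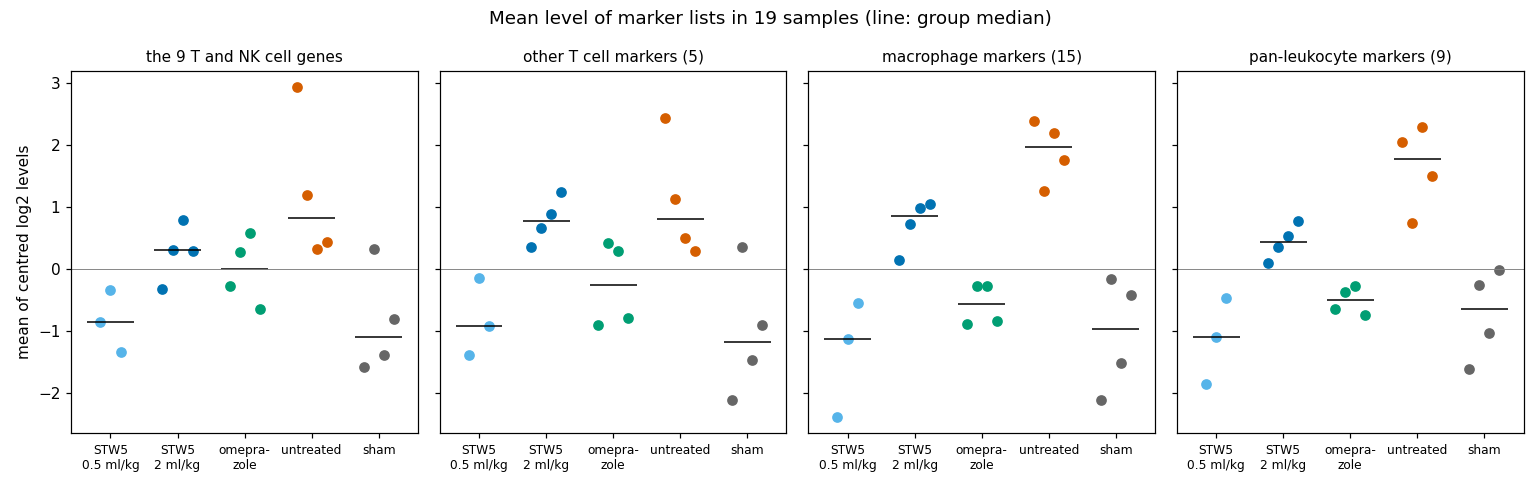
Mean centred log2 level (vertical axis) of the 9 genes, of 5 other T cell markers, of 15 macrophage markers and of 9 pan-leukocyte markers in each of 19 samples, with the group median as a line. Macrophage markers separate untreated from every other group. The 9 genes and the other T cell markers overlap between untreated and high-dose samples and between untreated and omeprazole samples. The other T cell markers overlap between untreated and sham samples as well.

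The 5 genes outside the set whose centred profile lay closest to the members' mean profile over the 19 samples were Ptprcap, Psmb8, Lrrc4, Sh2d2a and Plcg2. Closeness was the root mean square difference on the log2 scale, which was 0.257 for Ptprcap, 0.324 for Psmb8, 0.361 for Lrrc4, 0.367 for Sh2d2a and 0.374 for Plcg2. Among the members it was 0.398 for Nkg7, the closest, 0.726 for Cd247 and 0.892 for Lck, the farthest. Ptprcap, whose product binds CD45 in lymphocytes, had mean centred levels of -0.75 in low-dose, 0.46 in high-dose, -0.17 in omeprazole and 1.17 in untreated samples, against -0.90 in sham samples. Sh2d2a, a T cell adaptor that binds LCK, had -0.79, 0.38, -0.27 and 1.21 in these groups, against -0.73 in sham samples. These values describe the 19 samples, which share their groups, and no test was made.

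Promoters are shown for Cd247, Prf1 and Nkg7, the 3 members called in untreated against sham animals whose windows hold the ETS motif named below. RefSeq windows of 250 bases, taken as those before the transcription start in GRCr8, were found for 7 of the 9 members. There was none for Cd4 and Il2rb, and the Cd247 window runs into the gene as located above. In these windows 12 short motifs of factors that act in T and NK cells were searched on both strands. A member was counted if any window under its name held the motif, while the shares are over single windows. The ETS motif CAGGAAG was found in 5 of 7 members (Cd247, Cd3e, Lck, Nkg7 and Prf1), where 10.2% of 33469 windows of all genes hold it. The RUNX motif TGTGGT was found in 4 of 7 (Cd2, Lck, Nkg7 and Prf1), where 14.47% hold it. These 2 motifs, marked in capitals on either strand, were picked after the matches were seen, so the counts are a description and say nothing on binding. Each sequence is the plus strand, 5′ to 3′: Cd247 chr13:80576019-80576268, Prf1 chr20:29788790-29789039 and Nkg7 chr1:102981247-102981496.
Cd247: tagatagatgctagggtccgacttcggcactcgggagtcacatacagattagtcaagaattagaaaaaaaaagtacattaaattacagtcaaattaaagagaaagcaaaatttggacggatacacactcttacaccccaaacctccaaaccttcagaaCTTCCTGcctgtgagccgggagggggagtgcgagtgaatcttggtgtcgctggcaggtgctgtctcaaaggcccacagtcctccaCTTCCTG
Prf1: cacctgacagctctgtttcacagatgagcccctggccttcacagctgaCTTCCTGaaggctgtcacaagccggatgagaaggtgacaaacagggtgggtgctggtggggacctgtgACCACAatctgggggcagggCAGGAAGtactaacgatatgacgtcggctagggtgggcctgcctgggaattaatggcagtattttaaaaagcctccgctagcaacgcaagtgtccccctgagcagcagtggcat
Nkg7: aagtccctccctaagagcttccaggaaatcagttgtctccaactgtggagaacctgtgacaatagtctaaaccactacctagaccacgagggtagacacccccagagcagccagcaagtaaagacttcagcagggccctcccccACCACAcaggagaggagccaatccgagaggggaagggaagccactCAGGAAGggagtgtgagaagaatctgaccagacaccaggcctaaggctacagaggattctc
Cd247 holds CAGGAAG 2 times and TGTGGT 0 times, Prf1 holds them 2 times and 1 time, and Nkg7 1 time each. The last marked CTTCCTG of Cd247 ends at 80576268 and crosses the gene start at 80576264, so it does not lie wholly before it. The other motif spellings searched were AGGAAGT (4 of 7 members, 7.075% of windows) and CGGAAG (0 of 7, 13.92%) for ETS, both overlapping GGAAG of the first, and TGTGGTT (2 of 7, 4.592%) for RUNX. For T-box factors GTGTGA was in 2 of 7 (11.59%) and GGTGTGA in 0 of 7 (3.218%), and the E-box CAGNTG was in 5 of 7 (43.31%). The NFAT motif GGAAAA and the GATA motif AGATAA were in 0 of 7 (21.63% and 10.3% of windows), and the TCF motifs CTTTGA and ACAAAG in 1 of 7 each (13.91% and 16.3%).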

How the data were processed

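The 20 deposited scanner files hold an intensity for each feature, background-subtracted but not scaled between arrays (Agilent Feature Extraction, version 10.7.3.1, per the file headers). The authors also deposited a ratio of each signal to its array's median, used as an alternative. Of 58717 non-control features, the log2 signals of a probe's spots were averaged, outlier spots left out. This gave 30367 probes (18005 named in GRCr8 by accession, 2668 by symbol, 547 by synonym, 1933 by the file only, 7214 by none), and 11 with missing spots were dropped. Probes with at least 50% of their spots well above background on at least 4 arrays were kept (19915), and the brightest stood for a gene (13597). Each array was scaled to its 75th percentile, which lay between 563 and 1078 units. Of 190 pairs of arrays, compared over 3434 bright probes, the low-dose replicates 1 and 2 fell under the limit of 1.5 and were averaged.

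All 5 groups were fitted together with limma 3.58.1 (R 4.3.3; lmFit and eBayes; 14 residual and 2.78 prior degrees of freedom), and p-values were Benjamini-Hochberg adjusted over all genes at 0.05. A change had a standard error of 0.245 in the median gene, or 0.264 where low-dose STW5 took part. The number of arrays limits the precision. The script was tested on simulated data. The labels number replicates and name no animals, and each replicate was taken as 1 animal except for the averaged low-dose arrays. Replicate numbers paired the samples of the 2 STW5 doses only, judged by deviations from the group means (4 of 4 correlations above 0.1, 0.116 to 0.238). Alternatives were the background correction, scaling, filter, probe choice, the value table, all 20 arrays, a replicate block, 2-group fits, array weights, exchanged STW5 doses, leaving out each replicate and raising dim signals (added after seeing the data). All 9 members are named, with up to 4 genes per list by the smallest p in untreated against sham, other lists' markers where a result turned on them, and the 5 closest profiles. The members and lists were chosen with earlier results of these data known. Blood samples were not analysed here, and some single genes of the lists are not reported here.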

Additional observations from a re-analysis of the deposited data

How the results depend on the processing

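Of 730 recomputed single-gene changes of the 9 members, 609 kept their direction and side of the threshold, 59 lost and 45 gained a call, and 17 changed sign. The causes were not tested. Lck changed sign with normexp correction (-0.000853 in untreated against sham, 0.22 in low-dose STW5 against untreated) and with dim signals raised (-0.16 and 0.37). For Cd247 the high-dose change was -0.052 with normexp, -1.98 in the value table, -2.08 with exchanged doses, and -0.20, -0.28 and -0.05 without untreated replicate 3, untreated replicate 4 and high-dose replicate 4 (-0.28 to 0.73 over all left-out libraries). Its low-dose change was 0.12 in the value table and 0.15 with exchanged doses. Cd4 in high-dose against low-dose STW5 was -0.058 with normexp, -1.59 in the value table and -1.72 with exchanged doses. Cd3e in high-dose STW5 against untreated was 0.38 without untreated replicate 1 and 0.01 without high-dose replicate 2 (-0.62 to 0.38 over all left-out libraries).

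Counts of members called (of 9) under other settings were as follows. In untreated against sham they were 3 with normexp or the 2-group fit and 4 to 8 when 1 library was left out. In low-dose STW5 against untreated they were 2 with normexp or the value table, 3 with the 2-group fit, 0 with exchanged doses and 4 to 8 with 1 library left out. In high-dose STW5 against untreated they were 2 with median scaling or normexp, 1 with quantile normalization or dim signals raised, 6 in the value table or with exchanged doses, and 0 to 1 with 1 library left out. In omeprazole against untreated they were 4 with normexp, 1 with the 2-group fit and 0 to 3 with 1 library left out. Array weights called 7 in high-dose STW5 against sham and 6 in omeprazole against sham, and leaving out 1 library 0 to 4 in the first. Over all genes array weights also called far more in both comparisons, as the next paragraph gives. The counts with array weights are therefore not read as particular to the members. In high-dose against low-dose STW5 they were 3 with all 20 arrays or the replicate block, 4 with array weights, 2 with normexp, 5 with the 2-group fit, 0 with dim signals raised and 0 to 1 with 1 library left out. Low-dose STW5 against omeprazole gave 1 with normexp or the 2-group fit.

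Counts over all 13597 genes moved as well. Untreated against sham called 2263 with the 2-group fit. Low-dose STW5 against untreated called 1185 in the value table, 2797 with the 2-group fit and 1291 with exchanged doses. High-dose STW5 against untreated called 5314, 480 and 5112 in these 3, and 414 to 2037 with 1 library left out. Low-dose STW5 against sham called 0 with all 20 arrays, median scaling, no filter, normexp, the 2-group fit or quantile normalization, 5 with the replicate block, 2587 with array weights, 1476 in the value table, 1162 with exchanged doses and 0 to 90 with 1 library left out. High-dose STW5 against sham called 7091 with array weights, 0 in the value table, 1 with exchanged doses and 406 to 1467 with 1 library left out. Omeprazole against sham called 3561 with array weights, 115 with normexp and 169 to 329 with 1 library left out. High-dose against low-dose STW5 called 6342 with array weights, 5734 with no filter, 5434 with normexp, 4986 with the replicate block and 925 to 4069 with 1 library left out. High-dose STW5 against omeprazole called 2256 with array weights, 1019 in the value table, 51 with median scaling, 67 with normexp, 1173 with the 2-group fit, 328 with exchanged doses, 77 with the replicate block, 65 with dim signals raised and 5 to 22 with 1 library left out. Low-dose STW5 against omeprazole called 1136 with all 20 arrays, 2728 with array weights, 51 in the value table, 1019 with median scaling, 1602 with normexp, 183 with the 2-group fit, 30 with exchanged doses, 1149 with the replicate block and 164 to 776 with 1 library left out.

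The labels' replicate numbers paired no other 2 groups than the STW5 doses: of 40 comparisons of same-numbered samples 19 correlated above 0.1 (-0.32 to 0.58), and in 14 of these 40 the own number was the best match. Members near background, above all Lck, Cd2 and Cd3e, are limited by signal over background.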
